A study of Rattus norvegicus with 91 samples.

Results

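The corticotropin-releasing factor (CRF) and neuropeptide Y systems were followed across the ventral tegmental area of 10 rat lines. The set held 9 genes: Crh, Crhr1, Crhr2, Crhbp, Ucn, Npy, Npy1r, Npy2r and Npy5r. Members were all probe sets for which the platform annotation gives exactly 1 gene symbol, equal to 1 of these names. This rule found 8 probe sets of 7 genes, of 31099 probe sets and 14217 single-symbol genes on the array. Npy5r had 2 probe sets and Crh, Crhbp, Ucn, Npy, Npy1r and Npy2r had 1 each. No probe set was matched to Crhr1 or Crhr2, and both receptors were not analysed here.

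One array was made from each of 91 rats of 5 pairs of lines, each pair consisting of a line bred for high and a line bred for low alcohol consumption. The pairs, with the high-consumption line first, were HAD1 (8 rats) and LAD1 (10), HAD2 (8) and LAD2 (9), P (9) and NP (10), AA (10) and ANA (10), and sP (8) and sNP (9). Age, sex and drinking history of the rats were not given in the sources used here. Each comparison asked whether a gene's signal differed between the 2 lines of a pair. Where a value is listed for all 5 pairs, the order is that of this list. All signals are log2 values, so that a difference of 1 is a doubling, and signals were not compared between pairs or between probe sets. The number of arrays per line sets the precision, and the p-values measure the spread between rats of a line.

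CRF, the product of Crh, is the peptide that starts the hormonal stress response and also acts as a transmitter in the brain. It acts through the receptors encoded by Crhr1 and Crhr2, which urocortin, the product of Ucn, binds as well, and the CRF-binding protein encoded by Crhbp holds both peptides. Neuropeptide Y acts through Y receptors that inhibit adenylyl cyclase, of which Npy1r encodes Y1, Npy2r encodes Y2 and Npy5r encodes Y5. In many brain regions the peptides have opposed actions on anxiety-like behaviour and alcohol drinking. The ventral tegmental area holds dopamine neurons with GABA and glutamate neurons between them, and dopamine neurons of this region are a known site of Crhbp expression.

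The promoters of 4 members with measurable signals are shown because the later array-by-array comparisons turn on these genes. Each is 300 bases around the annotated start of transcription, read 5′ to 3′ on the gene's strand, from RefSeq on the GRCr8 assembly. Capitals mark TGACG, the core of the cyclic AMP response element, in either orientation, and TATAAA, the TATA motif.
Crhbp, chr2:28439397-28439696, minus strand: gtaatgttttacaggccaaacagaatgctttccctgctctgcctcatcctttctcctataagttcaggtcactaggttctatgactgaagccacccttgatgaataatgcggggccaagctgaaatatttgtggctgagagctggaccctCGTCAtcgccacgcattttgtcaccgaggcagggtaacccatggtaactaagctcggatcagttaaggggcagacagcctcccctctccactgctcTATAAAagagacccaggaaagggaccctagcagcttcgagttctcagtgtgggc
Npy, chr4:80211861-80212160, plus strand: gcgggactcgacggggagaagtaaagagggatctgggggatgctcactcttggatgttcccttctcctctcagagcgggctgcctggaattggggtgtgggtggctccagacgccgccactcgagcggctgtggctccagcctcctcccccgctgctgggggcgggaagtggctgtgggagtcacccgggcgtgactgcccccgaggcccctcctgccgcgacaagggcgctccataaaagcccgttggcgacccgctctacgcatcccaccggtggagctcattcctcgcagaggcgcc
Npy1r, chr16:27813338-27813637, minus strand: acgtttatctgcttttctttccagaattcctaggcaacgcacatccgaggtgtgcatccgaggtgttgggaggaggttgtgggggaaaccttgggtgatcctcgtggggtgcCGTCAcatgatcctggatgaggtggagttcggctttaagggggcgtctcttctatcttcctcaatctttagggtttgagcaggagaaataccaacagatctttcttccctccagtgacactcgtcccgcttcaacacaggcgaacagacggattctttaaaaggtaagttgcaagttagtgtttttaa
Npy5r, chr16:27821805-27822104, plus strand: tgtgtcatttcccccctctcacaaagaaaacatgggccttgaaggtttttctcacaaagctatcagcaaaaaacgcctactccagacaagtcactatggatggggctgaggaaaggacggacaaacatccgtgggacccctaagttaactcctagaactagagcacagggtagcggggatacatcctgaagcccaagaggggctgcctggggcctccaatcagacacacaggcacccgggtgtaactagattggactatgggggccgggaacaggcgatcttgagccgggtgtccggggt

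The Crhbp promoter held 1 match to TGACG, on the opposite strand and beginning 100 bases before the start, and 1 match to TATAAA. The Npy1r promoter held 1 match to TGACG, also on the opposite strand, and the windows of Npy and Npy5r held no match to either motif. Of 33469 promoters in the table, 21.2% held TGACG and 14.2% held TATAAA on either strand. The motif AAAGGTCA, to which receptors of the Nurr1 family bind, occurred in 1.43% of promoters and in none of the 4 windows. The GC box, GGGCGG, was found in the Npy window and in 33.1% of all promoters. The E-box, which is CANNTG, was found in the Npy1r window, where it shares bases with the TGACG match, and in 72.1% of all promoters. The starts of Npy1r and Npy5r lie 8.67 kb apart, and the genes are transcribed away from each other. A match is a description of the letters and not evidence of binding.

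The arrays differed in ways that touch the results. The signal of Th, the enzyme that marks dopamine neurons, ran from 9.12 to 14.95 within P and was as low as 8.23 in NP. The mean of 10 dopamine neuron markers likewise ran from 8.64 to 13.16 over the arrays of P and NP. Within each other line the lowest and highest arrays of either measure lay within 1 log2 unit. In tissue made of many cell types, fewer cells of a type and less RNA per cell cannot be told apart.

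The labels of P, NP, AA, ANA, sP and sNP may not match the arrays. By the distribution of all their values these arrays formed sets of 20, 17 and 19. The set of 20 held the 19 arrays labelled P or NP together with AA 1. The set of 17 held arrays labelled AA or ANA, and the set of 19 held AA 19 and ANA 20 beside the 17 labelled sP or sNP. By label the pairs had 19, 20 and 17 arrays, the same 3 sizes in another order, so the labels of all these arrays, and not only of the 3 that lay apart, may be displaced against the values. Whether they are was not tested. P, NP, AA, ANA, sP and sNP therefore name arrays by label only, and every difference in these pairs, the average over the pairs and the test of dependence on the pair rest on those labels. The HAD1 and LAD1 arrays (18) and the HAD2 and LAD2 arrays (17) each lay in a set of their own. Results for AA/ANA are given also without AA 1, AA 19 and ANA 20, which does not settle the labels of the rest.

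None of the member probe sets differed between the lines of any pair in limma's test adjusted over all probe sets. A probe set was tested if its highest line mean reached 7.02, the 40th percentile of all values, and was called at an adjusted p under 0.05. Crh, Crhbp, Npy, Npy1r and 1 probe set of Npy5r reached this floor, and Ucn, Npy2r and the other probe set of Npy5r did not. Of the 5 tested member probe sets, 0 were called in HAD1/LAD1, against 4.92% of all 21185 probe sets. In HAD2/LAD2 the count was 0 of 5 against 6.15%, and in AA/ANA 0 of 5 against 3.94%. In P/NP and in sP/sNP, 0 of 5 were called and the percentage over all probe sets was 0 in both pairs. At an unadjusted p under 0.05 the counts were 1 of 5 in P/NP (Npy), 1 of 5 in AA/ANA (Npy5r) and 0 of 5 in the other pairs. Over all probe sets, 13.7% passed the unadjusted threshold in HAD1/LAD1, 15% in HAD2/LAD2, 6.01% in P/NP, 13.7% in AA/ANA and 1.14% in sP/sNP.

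A test of whether the difference depends on the pair had 0 of 5 called, against 8.26% of all probe sets, and 1 of 5 (Npy) at an unadjusted p under 0.05, against 17.6% of all probe sets. The median absolute difference of the 5 members was 0.12, 0.092, 0.39, 0.23 and 0.11 over the pairs. Over all tested probe sets it was 0.061, 0.065, 0.052, 0.06 and 0.039. The members' standard errors were larger too, 0.15 to 0.37, against a median of 0.07 to 0.08 over all probe sets. A fit of all arrays shares 1 estimate of the spread, which for these genes holds the wide spread of P and NP. Fitted alone, the HAD1/LAD1 pair had standard errors of 0.10 for Crh, 0.20 for Crhbp, 0.19 for Npy, 0.13 for Npy1r and 0.10 for Npy5r. The P/NP pair fitted alone had 0.50, 0.65, 0.41, 0.27 and 0.23 in that order, each larger than in the fit of all arrays. No member was called in any pair fitted alone.

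**Figure D1:**
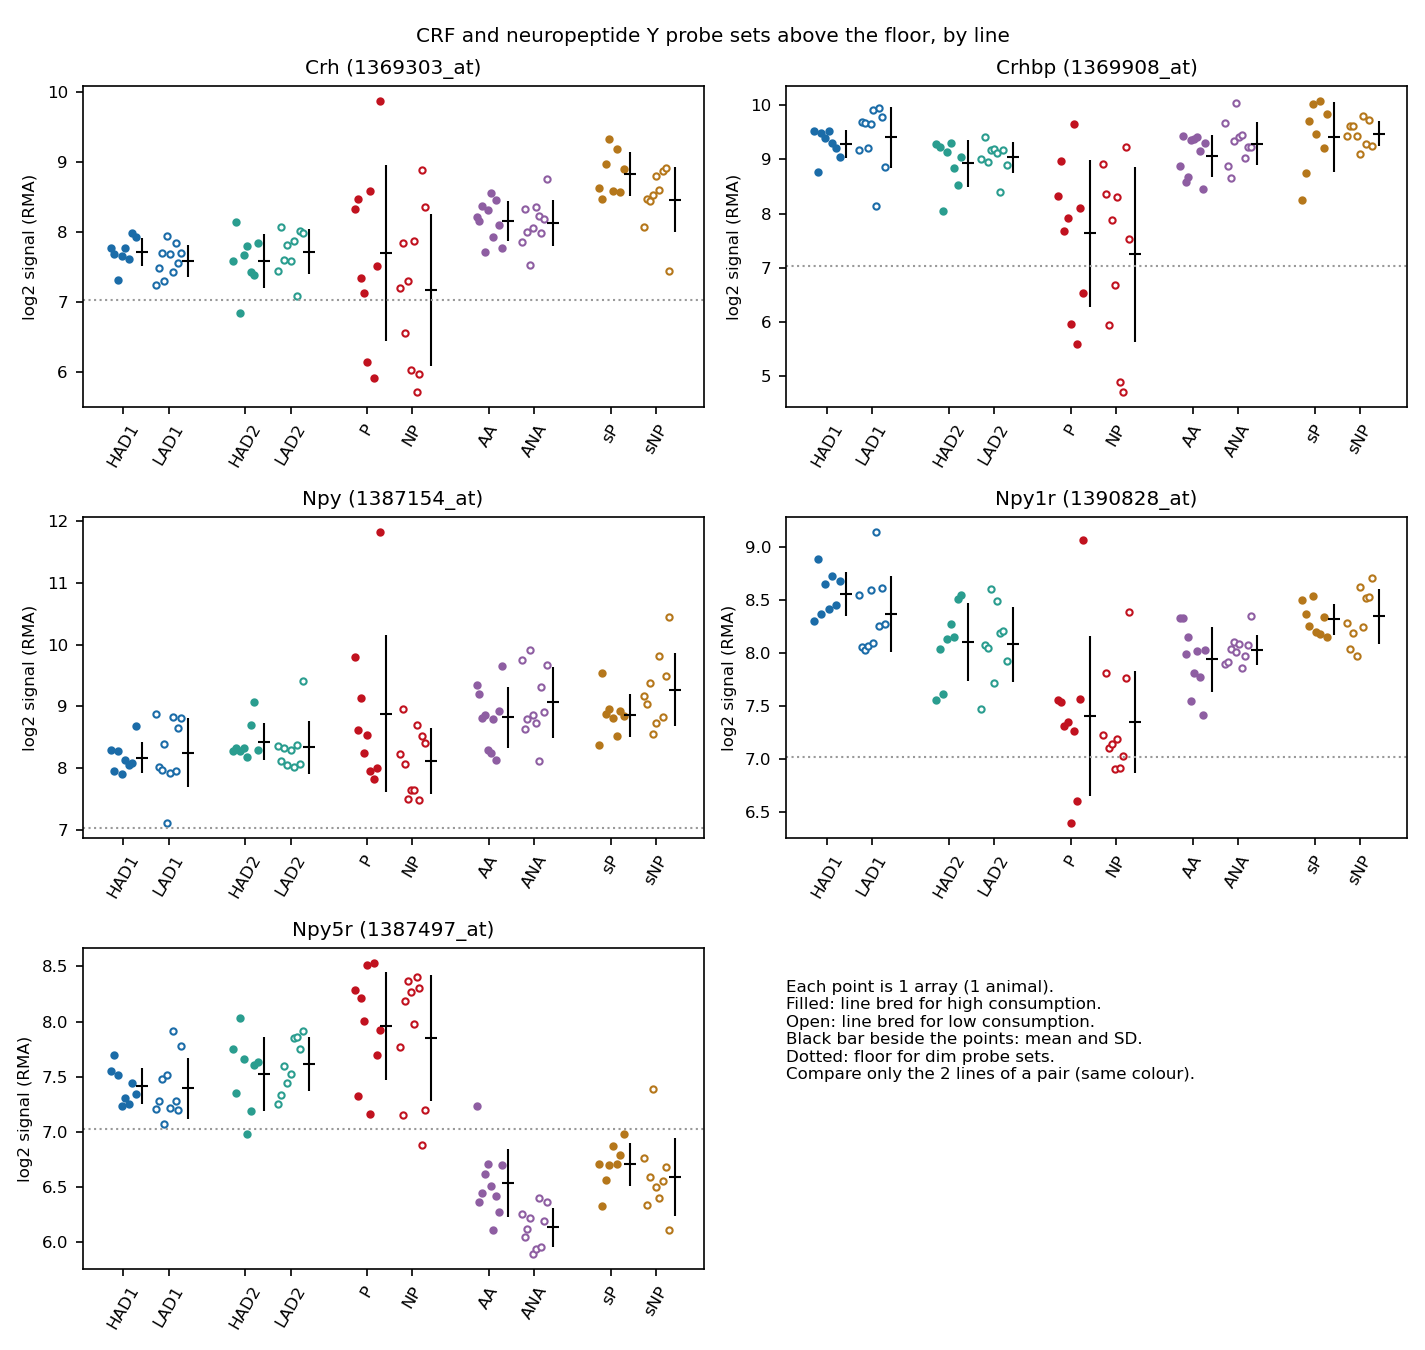
Log2 signal (y axis) of the 5 member probe sets above the floor on each array, by line (x axis). Filled points are lines bred for high consumption, open points lines bred for low consumption, black bars the mean and SD, and the dotted line the floor of 7.02. Only the lines of 1 colour are to be compared, and lines are as labelled. In every pair and panel the points of both lines overlap, and P and NP are spread most widely for Crh and Crhbp.

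Crh, which encodes CRF itself, was measured by probe set 1369303_at. In HAD1 it had a lowest signal of 7.32, a median of 7.73 and a highest of 7.98, and in LAD1 7.25, 7.62 and 7.94. HAD2 gave 6.84, 7.63 and 8.15, and LAD2 gave 7.08, 7.82 and 8.08. The lines of both pairs overlapped over nearly their whole ranges. The difference, high- minus low-consumption line, was 0.13 ± 0.28 (SE) between HAD1 and LAD1 (limma adjusted p = 0.953). Between HAD2 and LAD2 it was -0.13 ± 0.29 (limma adjusted p = 0.937).

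In P the lowest, median and highest Crh signals were 5.92, 7.51 and 9.88, and in NP they were 5.71, 7.25 and 8.88. Both lines covered a range of over 3 log2 units, and only 1 array of P lay above all of NP. The difference was 0.53 ± 0.27, with a 95% interval of -0.01 to 1.08 and a limma adjusted p of 0.843. Without the array labelled P 10, which had the highest signal, the difference was 0.26. When arrays were weighted by how well they fit their line, it was 0.78 with an adjusted p of 0.0238. The adjusted p over 11 alternative settings ran from 0.0238 to 0.9999, and this was the lowest.

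AA had Crh signals of 7.71, 8.19 and 8.56 (lowest, median and highest) and ANA 7.53, 8.12 and 8.75, a difference of 0.03 ± 0.27, or 0.14 without AA 1, AA 19 and ANA 20. In sP they were 8.47, 8.77 and 9.32, and in sNP 7.45, 8.53 and 8.92. In that pair 3 of 8 sP arrays lay above all sNP arrays and 3 of 9 sNP arrays below all sP arrays. The difference was 0.37 ± 0.29, with a 95% interval of -0.21 to 0.94 and a limma adjusted p of 0.9999, and 0.24 without the array labelled sNP 9. Over the 5 pairs Crh was on average 0.18 ± 0.13 higher in the high-consumption line (95% interval -0.07 to 0.43, limma adjusted p = 0.699), with the positive sign in 4 of 5 pairs.

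Ucn, which encodes urocortin, lay below the floor in all 10 lines, with line means from 5.26 to 5.98. Its differences between lines ran from -0.07 in P/NP to 0.01 in HAD1/LAD1, and their 95% intervals lay between -0.23 and 0.18. In HAD1 the highest Ucn signal, 6.38, was on the array labelled HAD1 23. In NP, 9 arrays had no Ucn signal above 5.48 and the array labelled NP 5 had 6.11. Urocortin is abundant in the Edinger-Westphal nucleus near the ventral tegmental area, where it occurs with the peptide encoded by Cartpt. On these arrays the Cartpt signal was the highest of its line, at 9.84 on HAD1 23 and 9.68 on NP 5. The array P 1, with the highest Cartpt signal of P at 11.20, had the highest Ucn signal of P at 5.50, close to the other P arrays. Both signals were also the highest of their line on HAD2 5 (Cartpt 8.49, Ucn 6.32) and AA 1 (9.18 and 5.82). LAD2 20, with the highest Cartpt signal of LAD2 at 10.76, had a Ucn signal of 5.92, near the LAD2 median of 5.94. In LAD1, ANA, sP and sNP too, the array with the highest Cartpt signal did not have the highest Ucn signal. These arrays were LAD1 39, ANA 18, sP 5 and sNP 4, with Ucn signals of 5.93, 5.69, 5.18 and 5.16. The part of neighbouring tissue in these values was not tested.

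Crhbp, whose product binds CRF and urocortin and limits their action, was measured by probe set 1369908_at. HAD1 had signals of 8.77, 9.35 and 9.53 (lowest, median and highest), and LAD1 had 8.14, 9.66 and 9.95. In HAD2 they were 8.05, 9.08 and 9.29, and in LAD2 8.40, 9.12 and 9.42. The array LAD1 37 lay below all HAD1 arrays, and the ranges overlapped in both pairs. Between HAD1 and LAD1 the difference was -0.12 ± 0.36 (SE), and without LAD1 37 it was -0.26. Between HAD2 and LAD2 it was -0.11 ± 0.37, and without the array labelled HAD2 5, the lowest of its line, it was 0.014.

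P had Crhbp signals of 5.60, 7.92 and 9.65, and NP had 4.70, 7.71 and 9.23. This was the widest spread of any member in any pair, with an SD of 1.4 in P and 1.6 in NP. The difference of 0.39 ± 0.35 (limma adjusted p = 0.961) was smaller than either SD, and without the array labelled NP 8 it was 0.11. Without the array labelled P 8 it was 0.65, and with weighted arrays it was 0.95 (limma adjusted p = 0.0504). The adjusted p over 11 alternative settings ran from 0.0504 to 0.9999. AA gave 8.45, 9.23 and 9.43 against 8.66, 9.28 and 10.05 in ANA, a difference of -0.23 ± 0.34, or -0.24 without the 3 arrays named above. In sP the signals were 8.26, 9.58 and 10.08 and in sNP 9.10, 9.44 and 9.80, a difference of -0.06 ± 0.37. Of the 8 sP arrays, 3 were above all of sNP, while sP 2, at 8.26, and sP 3, at 8.74, were below all of sNP. The average over the pairs was -0.03 ± 0.16, with a 95% interval of -0.35 to 0.30.

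**Figure D2:**
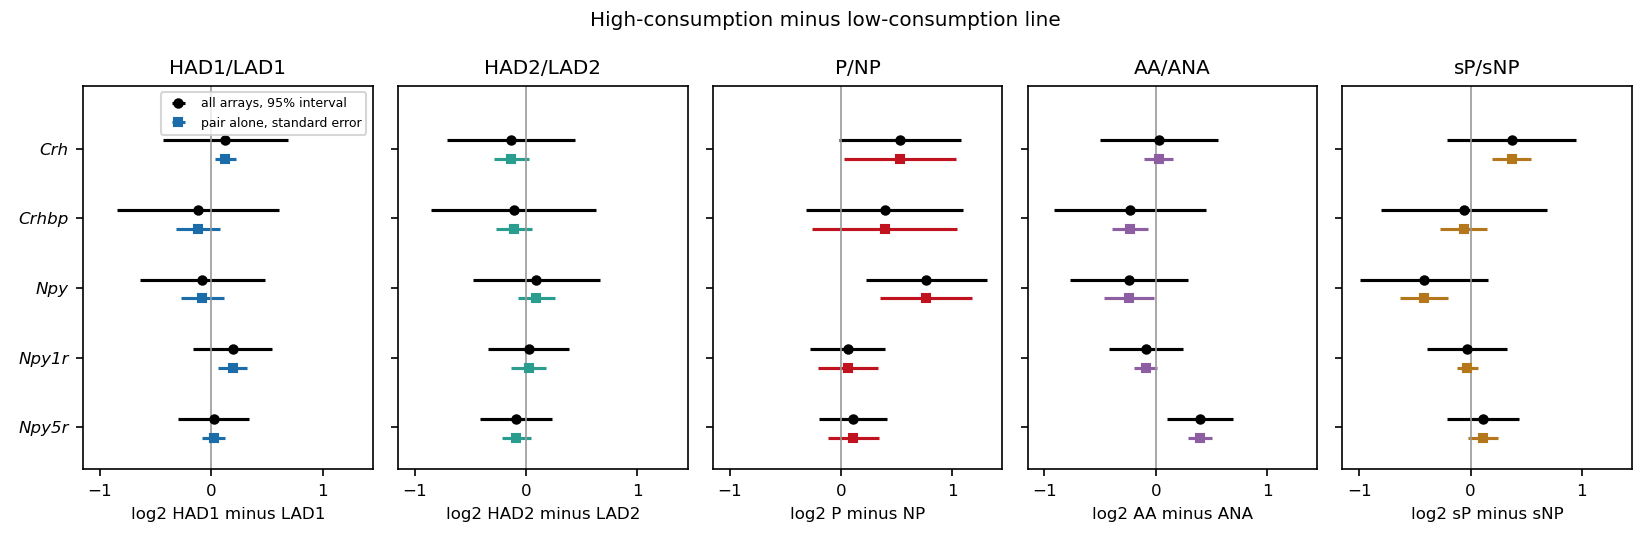
Difference in log2 signal, high- minus low-consumption line (x axis), of the 5 member probe sets in each pair. Circles with black bars are the fit of all arrays with its 95% interval, and squares with coloured bars the fit of the pair alone with its standard error. The intervals of Npy in P/NP (0.22 to 1.3) and of Npy5r in AA/ANA (0.10 to 0.70) do not include 0, but neither difference passed the adjustment over all probe sets. The Npy interval rests on the spread shared by all lines, and P/NP fitted alone gave a larger standard error of 0.41.

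Npy, which encodes neuropeptide Y, was measured by probe set 1387154_at. In HAD1 the lowest, median and highest signals were 7.91, 8.10 and 8.69, and in LAD1 7.11, 8.21 and 8.88. HAD2 gave 8.18, 8.31 and 9.07, and LAD2 gave 8.02, 8.30 and 9.42. The SD was 0.25 in HAD1, 0.56 in LAD1, 0.30 in HAD2 and 0.43 in LAD2, with 1 low array in LAD1 and 1 high array in LAD2. The differences were -0.08 ± 0.28 (SE) and 0.09 ± 0.29, and without the high array, LAD2 20, the latter was 0.23.

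With all arrays weighted equally, Npy had a larger difference between the arrays labelled P and NP than any other member in any pair. With weighted arrays the order in P/NP was another, with 0.95 for Crhbp, 0.78 for Crh and 0.69 for Npy. P had signals of 7.82, 8.54 and 11.83 and NP had 7.49, 8.14 and 8.95. In P, 3 of 9 arrays lay above all of NP, and 4 of 10 NP arrays lay below all of P. The difference was 0.77 ± 0.27, with a 95% interval of 0.22 to 1.3, an unadjusted p of 0.00614 and a limma adjusted p of 0.783. These rest on the spread shared by all lines, and P/NP fitted alone gave 0.77 ± 0.41 with an unadjusted limma p of 0.0778. It rested to a large extent on the array labelled P 10, at 11.83, since the next P array had 9.80. Without P 10 the difference was 0.40, and without P 10 and NP 8 it was 0.33. The adjusted p over 11 alternative settings ran from 0.0544 to 0.9999.

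P 10 stood apart for other genes as well. It had the highest signal in P of Crh, at 9.88, and of Npy1r, at 9.07. The lowest Th signal in P, 9.12, and the lowest glutamate neuron marker mean in P, 7.47, were on the same array, as was the highest mean of 5 GABA and NPY interneuron markers in P, 11.62. NP 8 had the lowest signal of NP for Th, at 8.23, for Crhbp, at 4.70, and for Npy, at 7.49. The part of the cells taken in the members' values was not tested.

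In AA the Npy signals were 8.13, 8.84 and 9.66 and in ANA 8.11, 8.89 and 9.91, a difference of -0.24 ± 0.27, or -0.34 without the 3 arrays in another pair's distribution. In sP they were 8.38, 8.86 and 9.54 and in sNP 8.55, 9.16 and 10.44. The difference of -0.42 ± 0.29 had a 95% interval of -0.99 to 0.16 and a limma adjusted p of 0.9999. Without the array labelled sNP 9, at 10.44, it was -0.27. The sign of the Npy difference was positive in 2 of 5 pairs. The test of whether it depends on the pair gave an unadjusted p of 0.0342 and a limma adjusted p of 0.221, and the average over the pairs was 0.02 ± 0.12. That test too rests on the spread shared by all lines, which understates that of P/NP fitted alone.

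Npy1r encodes the Y1 receptor, the main postsynaptic receptor of neuropeptide Y, and was measured by probe set 1390828_at. HAD1 had signals of 8.30, 8.55 and 8.89 (lowest, median and highest) and LAD1 had 8.03, 8.26 and 9.14. In LAD1, 6 of 10 arrays lay below all of HAD1, while LAD1 37 lay above all of HAD1. The difference was 0.19 ± 0.18 (SE), and 0.28 without LAD1 37, with limma adjusted p of 0.774 and 0.497. HAD2 gave 7.56, 8.14 and 8.55 against 7.47, 8.08 and 8.60 in LAD2, a difference of 0.02 ± 0.18.

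In P the Npy1r signals were 6.40, 7.35 and 9.07 and in NP 6.91, 7.17 and 8.38. The difference of 0.06 ± 0.17 turned to -0.15 without P 10. AA gave 7.42, 8.01 and 8.33 against 7.86, 8.03 and 8.35 in ANA, a difference of -0.09 ± 0.17, or -0.11 without the 3 arrays. In sP they were 8.15, 8.30 and 8.54 and in sNP 7.97, 8.29 and 8.71, a difference of -0.03 ± 0.18. The medians were nearly the same within AA/ANA and within sP/sNP, while that of P was above that of NP. All arrays of P other than P 10 had Npy1r signals of 7.56 or lower. The average over the pairs was 0.03 ± 0.08, with a 95% interval of -0.13 to 0.19.

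Npy5r encodes the Y5 receptor, and its probe set above the floor was 1387497_at. In HAD1 the lowest, median and highest signals were 7.23, 7.39 and 7.69, and in LAD1 7.07, 7.28 and 7.92. In HAD2 they were 6.98, 7.62 and 8.03, and in LAD2 7.25, 7.59 and 7.91. The 4 lines overlapped pair by pair, with differences of 0.02 ± 0.16 (SE) and -0.09 ± 0.16. P gave 7.16, 8.01 and 8.54 against 6.88, 8.08 and 8.41 in NP, a difference of 0.11 ± 0.15. In sP they were 6.33, 6.71 and 6.98 and in sNP 6.11, 6.55 and 7.39, a difference of 0.11 ± 0.16.

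With all arrays weighted equally, the smallest adjusted p of any member in a pair was that of Npy5r between the arrays labelled AA and ANA. AA had signals of 6.10, 6.47 and 7.23, and ANA had 5.89, 6.15 and 6.39. In AA, 7 of 10 arrays lay above all of ANA, and 4 of 10 ANA arrays lay below all of AA. The difference was 0.40 ± 0.15, with a 95% interval of 0.10 to 0.70, an unadjusted p of 0.00929 and a limma adjusted p of 0.143. Fitted alone, the pair gave an adjusted p of 0.0584, and with weighted arrays the difference was 0.35 with an adjusted p of 0.0433. Without AA 1, AA 19 and ANA 20 it was 0.32 with an adjusted p of 0.355, and without AA 1 alone, which had the highest signal, it was also 0.32. The adjusted p over 10 alternative settings ran from 0.0433 to 0.355.

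Both lines of AA/ANA lay below the floor for this probe set, as did sP and sNP, with means of 6.70 and 6.59. The probe set was tested because of its signals in other lines. The second Npy5r probe set, 1369246_a_at, did not show the difference, with means of 5.41 ± 0.46 (SD, n = 10) in AA and 5.45 ± 0.30 (SD, n = 10) in ANA and a difference of -0.04 ± 0.14 (SE). This probe set lay just under the floor, its highest line mean being 7.01 in P. Its differences in the other pairs ran from -0.09 in HAD2/LAD2 to 0.13 in P/NP. Averaged over the 5 pairs, the difference of the brighter Npy5r probe set was 0.11 ± 0.07, with a 95% interval of -0.03 to 0.25 and the positive sign in 4 of 5 pairs.

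Npy2r, which encodes the mainly presynaptic Y2 receptor, lay below the floor in all lines, with line means from 4.57 to 5.18. Its differences ran from -0.09 in AA/ANA to 0.06 in P/NP, and the 95% intervals lay between -0.22 and 0.20. At signals this low a probe set follows changes in its transcript poorly, so a difference was not detectable rather than shown to be absent.

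**Figure D3:**
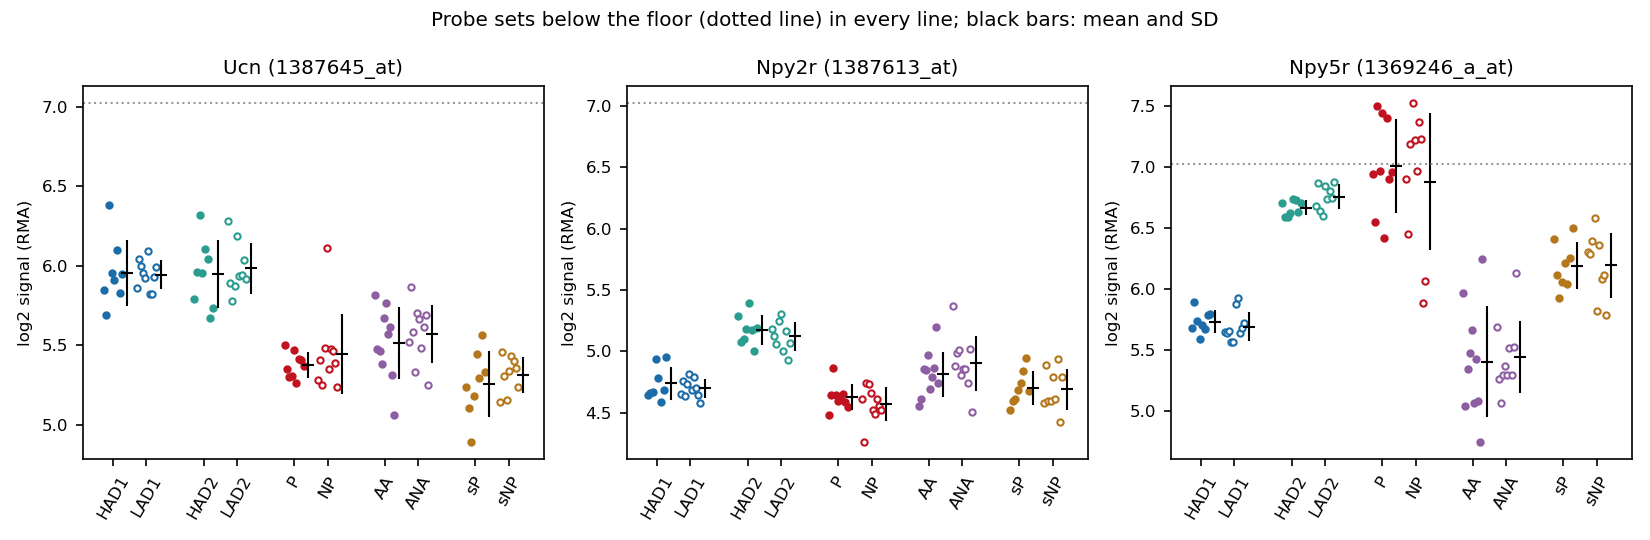
Log2 signal (y axis) of the 3 member probe sets below the floor (dotted line, 7.02) on each array, by line (x axis), with black bars for the mean and SD. Filled points are lines bred for high consumption and open points lines bred for low consumption. Ucn on the array labelled NP 5, at 6.11, stands above the other NP arrays, and the second Npy5r probe set reaches the floor in some P and NP arrays.

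Array by array, each of the 5 tested members moved with at least 1 list of cell type or neighbouring-region markers in at least 1 pair. Each array's signal was taken as its distance from its line's mean and compared with the mean of each of 10 marker lists. With the Npy1r and Npy5r comparison, this gave 255 relations over members, lists and pairs, tested by permutation with 100000 resamples, 2-sided and adjusted over all 255. Of these, 59 passed an adjusted p of 0.05 by Pearson's r and 43 by both r and Spearman's rho. The P/NP pair held 28 of the 59, the other pairs 6 to 9 each. Many lists move together on the same arrays, so a relation with 1 list is not particular to it. The relations described next were picked after their values were seen. For each, r is given also inside the 5 sets of arrays formed by their distributions, with no line label used, in the order of the HAD1 and LAD1 set, the HAD2 and LAD2 set and the sets of 20, 17 and 19.

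Crhbp was higher on arrays with higher dopamine neuron markers, a list of 10 tested genes that includes Th, the dopamine transporter gene Slc6a3 and the vesicular transporter gene Slc18a2. Pearson's r was 0.74 in HAD1/LAD1 (18 arrays, rho = 0.67), 0.78 in HAD2/LAD2 (17 arrays, rho = 0.59) and 0.90 in P/NP (19 arrays, rho = 0.91). In AA/ANA it was 0.46 (20 arrays, rho = 0.57) and in sP/sNP 0.62 (17 arrays, rho = 0.58). The unadjusted permutation p of r was 0.00032, 0.00095, 1e-05, 0.0415 and 0.00802 in that order, of which 1e-05 is the smallest that the resamples can give. The adjusted p of r was 0.0051, 0.00821, 0.00085, 0.118 and 0.0375, so that 4 of 5 pairs passed by r. By rho the unadjusted p was 0.003, 0.0143, 1e-05, 0.00993 and 0.0158, and the adjusted p 0.0207, 0.0651, 0.00127, 0.0478 and 0.0671. HAD1/LAD1 and P/NP passed by both measures. Without the 2 arrays farthest from the median of the markers, r was 0.59, 0.64, 0.92, 0.61 and 0.60, so the relation did not rest on those arrays. Inside the sets, with no label used, r was 0.74, 0.74, 0.90, 0.50 and 0.56.

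Crhbp passed by both measures with other lists as well. With the Edinger-Westphal markers r was 0.76 in HAD1/LAD1 (adjusted permutation p = 0.0051, rho = 0.67), as high as with the dopamine neuron markers, and 0.58 in P/NP (adjusted permutation p = 0.0376, rho = 0.65). With the raphe and interpeduncular markers r was -0.68 in HAD1/LAD1, 0.66 in P/NP and -0.68 in AA/ANA, and so had no common sign among the pairs in which it passed. Inside some sets, further lists had an r about as large as the dopamine neuron markers, or larger. With the endothelial and pericyte markers r was -0.69, -0.75, -0.37, 0.26 and -0.47. In the set of 17 it was -0.69 with the hypothalamic and mammillary and -0.65 with the GABA and NPY interneuron markers. With the oligodendrocyte markers it was -0.65 in the set of 17 and -0.57 in the set of 19.

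The arrays at the ends show the size of the relation of Crhbp with the dopamine neuron markers. NP 8, with a dopamine neuron markers mean of 8.64, had a Crhbp signal of 4.70, and P 7, with a mean of 13.16, had 9.65. In HAD2/LAD2, HAD2 5 had the lowest marker mean, 11.67, and the lowest Crhbp signal, 8.05. When the marker mean was added to the fit as a covariate, the standard error of the Crhbp difference in HAD1/LAD1 fell from 0.36 to 0.20 and in P/NP from 0.35 to 0.19. The differences were then 0.06 and 0.22, and Crhbp was called in no pair.

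Npy5r ran the other way, with lower signals on arrays with higher dopamine neuron markers. Its r was -0.75, -0.64, -0.72, -0.54 and -0.38 over the pairs, with rho of -0.68, -0.56, -0.81, -0.34 and -0.36. The unadjusted permutation p of r was 0.00031, 0.0049, 0.00079, 0.0135 and 0.131, and the adjusted p 0.0051, 0.026, 0.0082, 0.0557 and 0.25. By rho the adjusted p was 0.0171, 0.0783, 0.00191, 0.283 and 0.292. The relation passed by both measures in HAD1/LAD1 and P/NP and had the same sign in all 5 pairs. In AA, ANA, sP and sNP this probe set lay below the floor, with means of 6.53, 6.13, 6.70 and 6.59. The values of AA/ANA and sP/sNP are therefore those of dim signals. The second Npy5r probe set was not among these relations. Without the 2 farthest arrays r was -0.57, -0.38, -0.86, -0.41 and -0.21, so that in HAD2/LAD2 it rested largely on HAD2 5 and LAD2 20. In AA/ANA r was -0.53 over the 17 arrays other than AA 1, AA 19 and ANA 20, and inside the sets it was -0.72, -0.64, -0.72, -0.51 and -0.36. With the marker mean as a covariate the Npy5r difference in AA/ANA was 0.36 ± 0.12, with a limma adjusted p of 0.069. Other lists had values of r as large in the set of 20. They were -0.81 with the astrocyte, -0.78 with the raphe and interpeduncular and -0.73 with the microglia markers. In the HAD1 and LAD1 set the same lists had r of 0.11, 0.23 and 0.27.

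**Figure D4:**
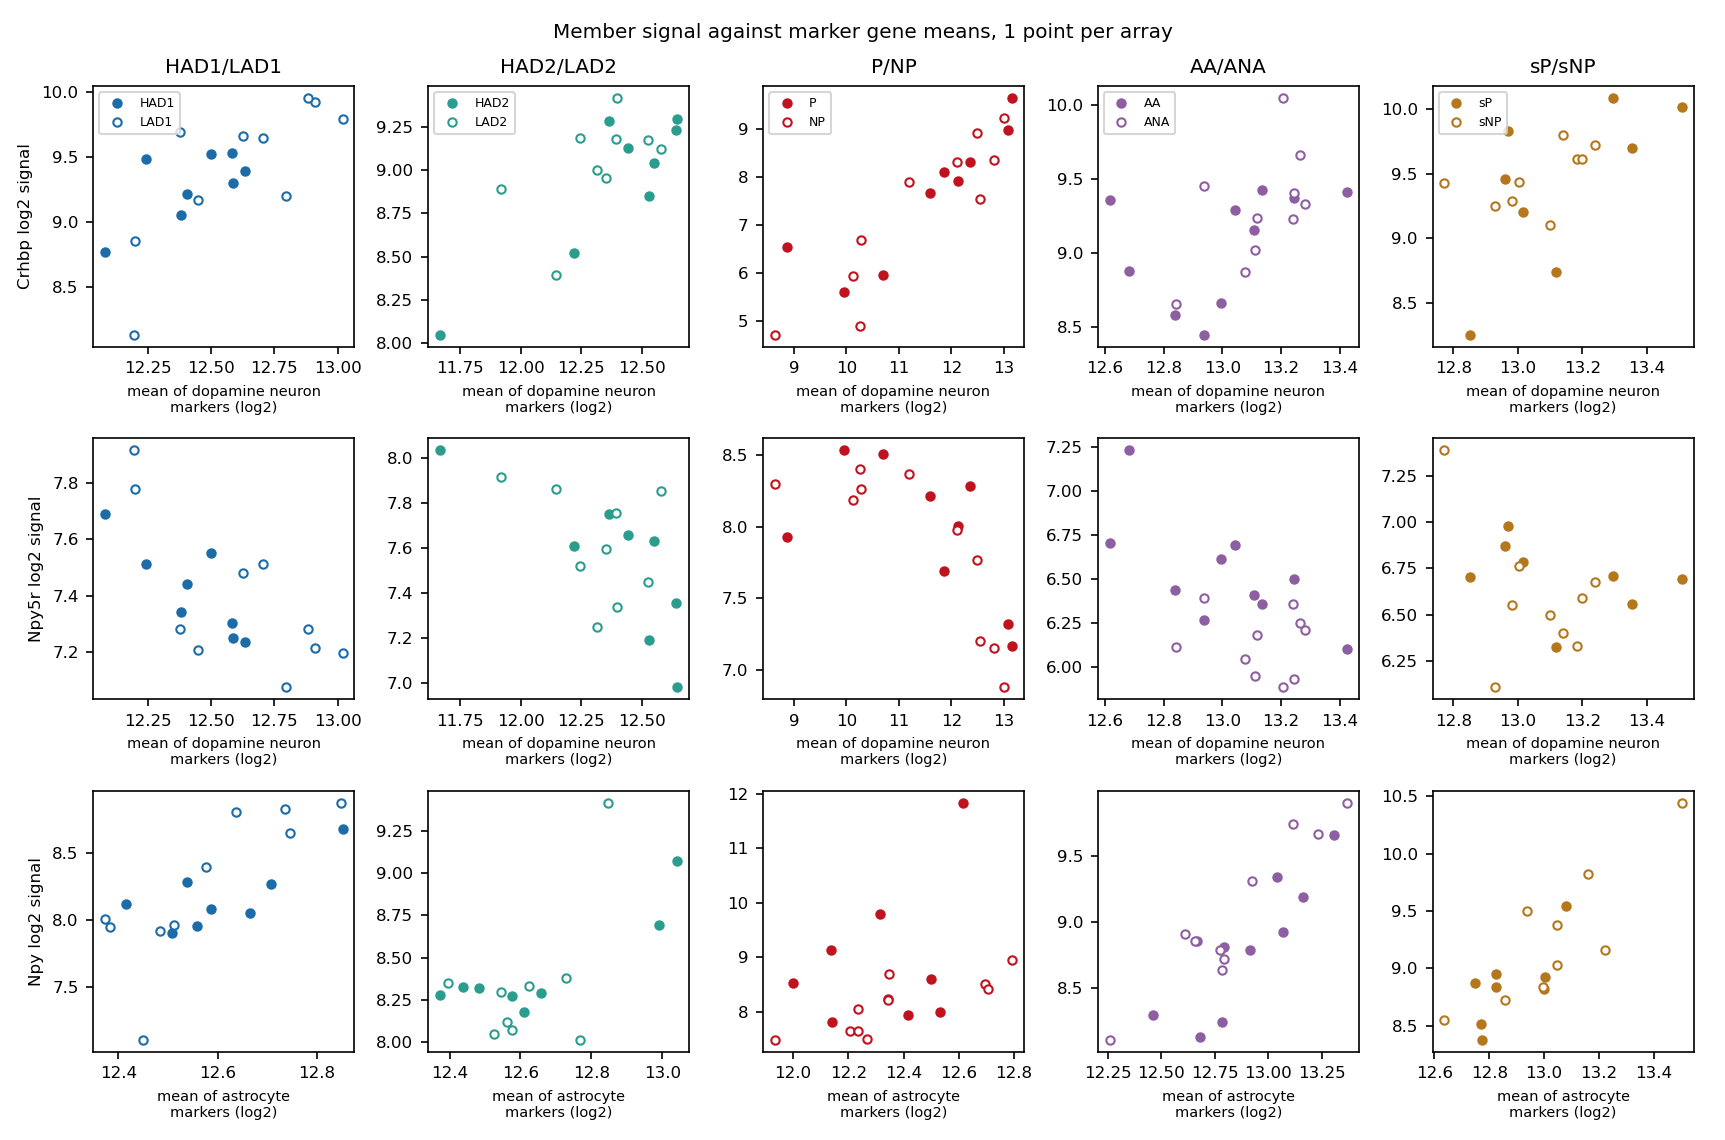
Log2 signal of Crhbp (top row), Npy5r (middle) and Npy (bottom) on the y axis against the mean log2 signal of the dopamine neuron markers (upper rows) or astrocyte markers (bottom row) on the x axis, 1 point per array and 1 column per pair. Filled points are lines bred for high consumption and open points lines bred for low consumption. Crhbp rises and Npy5r falls to the right in the P/NP panels (r of 0.90 and -0.72), and Npy rises with the astrocyte markers in the AA/ANA panel (r = 0.90).

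Npy was higher on arrays with higher astrocyte markers, a list of 5 genes: Gfap, Aqp4, Aldh1l1, Slc1a3 and Gja1. Its r was 0.76 in HAD1/LAD1, 0.63 in HAD2/LAD2, 0.46 in P/NP, 0.90 in AA/ANA and 0.82 in sP/sNP, with rho of 0.80, 0.34, 0.40, 0.84 and 0.60. The unadjusted permutation p of r was 0.00018, 0.00804, 0.0429, 1e-05 and 7e-05, and the adjusted p 0.0051, 0.0375, 0.12, 0.00085 and 0.00223. By rho the adjusted p was 0.00227, 0.341, 0.212, 0.0017 and 0.0588. HAD1/LAD1 and AA/ANA passed by both measures, and HAD2/LAD2 and sP/sNP by r alone. Without the 2 arrays farthest from the median, r was 0.67, 0.47, 0.40, 0.85 and 0.60. In AA/ANA, r was 0.87 over the 17 arrays other than AA 1, AA 19 and ANA 20, and inside the sets it was 0.74, 0.63, 0.43, 0.81 and 0.87. The sNP array with the highest Npy signal, 10.44, also had the highest astrocyte markers mean of its pair, 13.50.

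Npy1r was lower on arrays with higher glutamate neuron markers, a list of 2 tested genes that encode vesicular glutamate transporters, Slc17a6 and Slc17a7. The r was -0.73, -0.75, -0.90, -0.42 and -0.47 over the pairs, and rho was -0.68, -0.72, -0.79, -0.53 and -0.51. The unadjusted permutation p of r was 0.00051, 0.00052, 1e-05, 0.0653 and 0.0584, and the adjusted p was 0.00663, 0.00663, 0.00085, 0.162 and 0.15. By rho the adjusted p was 0.0195, 0.0151, 0.00273, 0.0704 and 0.114, so that 3 of 5 pairs passed by both measures. Without the 2 farthest arrays r was -0.55, -0.82, -0.67, -0.19 and -0.41. In AA/ANA it was -0.38 without AA 1, AA 19 and ANA 20, and inside the sets it was -0.67, -0.71, -0.88, -0.44 and -0.46. Npy1r was also higher on arrays with higher microglia markers, with r of 0.35, 0.45, 0.69, 0.64 and 0.70, and passed by both measures in the last 3. Without AA 1, AA 19 and ANA 20 the AA/ANA value was 0.43. Inside some sets, other lists had an r about as large as the glutamate neuron markers, or larger. With the hypothalamic and mammillary markers r was 0.13, 0.56, 0.81, 0.18 and 0.61. With the GABA and NPY interneuron markers it was 0.26, 0.75, 0.75, 0.26 and 0.07. With the raphe and interpeduncular markers it was 0.52, 0.70, 0.41, 0.22 and 0.29.

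Npy1r and Npy5r, the neighbouring receptor genes, had no common direction over the pairs. Their r was 0.43, -0.076, -0.57, 0.30 and -0.51 over the pairs, and only P/NP passed the adjustment (unadjusted permutation p = 0.00886, adjusted p = 0.0396, rho = -0.80). Without the 2 farthest arrays the P/NP value was -0.65. In AA/ANA it was -0.14 without AA 1, AA 19 and ANA 20.

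Crh passed by both measures with several lists in P/NP, and with no list in more than 2 pairs. In P/NP its r was -0.78 with the glutamate neuron markers (adjusted permutation p = 0.00127, rho = -0.86), 0.76 with the astrocyte markers (adjusted permutation p = 0.0051, rho = 0.76) and 0.58 with the Edinger-Westphal markers (adjusted permutation p = 0.0375, rho = 0.61). With the astrocyte markers it passed by both measures in sP/sNP too, but with the opposite sign (r = -0.74, adjusted permutation p = 0.00821, rho = -0.69). With the dopamine neuron markers its r was 0.24, 0.65, 0.48, -0.11 and 0.53 over the pairs. That relation passed by r alone in HAD2/LAD2 (adjusted permutation p = 0.0293, rho = 0.59) and by rho alone in P/NP (rho = 0.64, adjusted permutation p = 0.0226). Without NP 8 and P 10, the 2 arrays farthest from the median of the markers, the P/NP value of r was 0.90, and without HAD2 5 and LAD2 20 the HAD2/LAD2 value was 0.74.

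**Figure D5:**
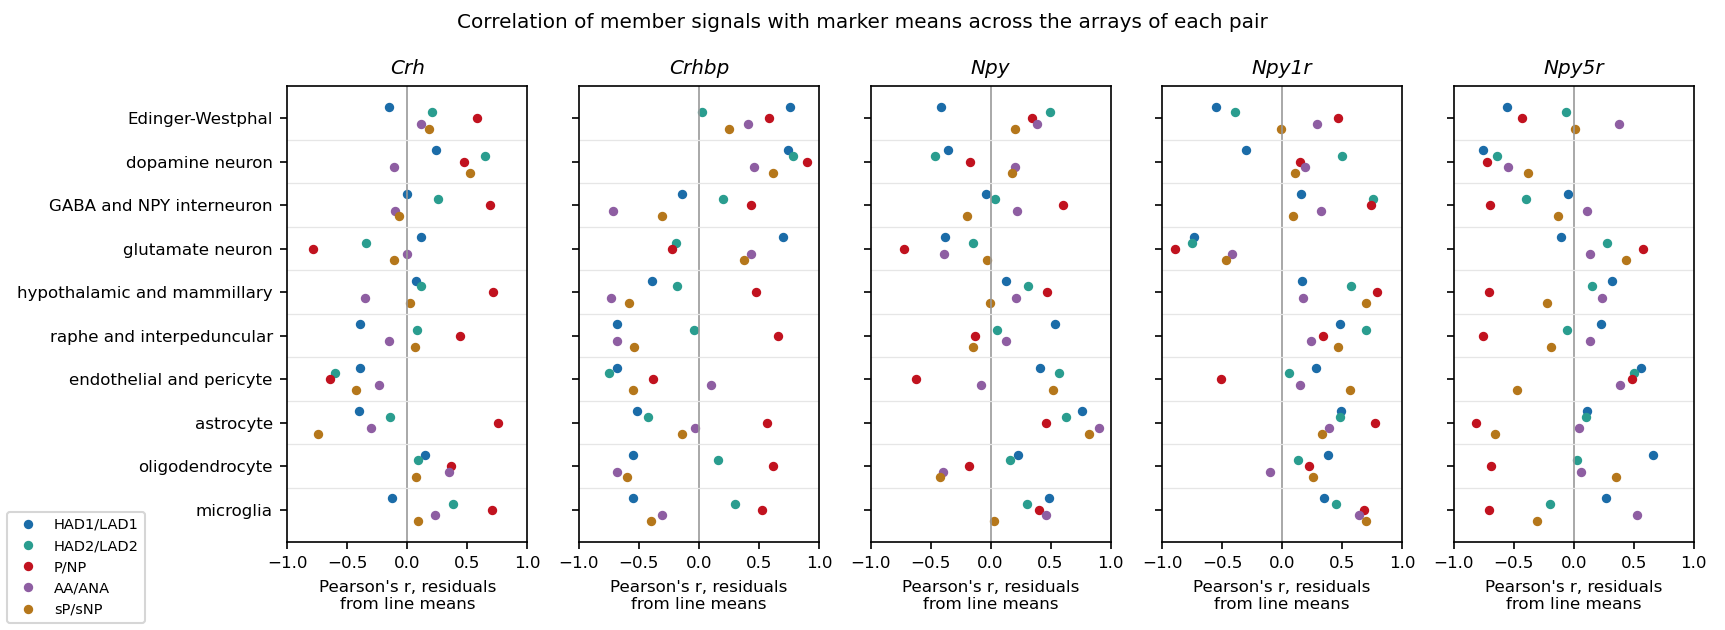
Pearson's r (x axis) between each member's signal and the mean of each marker list (y axis) across the arrays of a pair, after each line's mean was subtracted, 1 point per pair. Crhbp with the dopamine neuron markers (r of 0.46 to 0.90) and Npy with the astrocyte markers (0.46 to 0.90) are to the right of 0 in all 5 pairs, and Npy5r with the dopamine neuron markers (-0.75 to -0.38) and Npy1r with the glutamate neuron markers (-0.90 to -0.42) to the left. The Npy5r probe set lay below the floor in AA, ANA, sP and sNP.

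The genes whose pattern was most like that of each member were ranked by the mean of r over the 5 pairs, from 91 arrays and 11081 genes, as a description. For Crhbp they were Wnt2 at 0.84, which encodes a secreted Wnt ligand, Foxp2 at 0.80, which encodes a forkhead transcription factor, and F2r at 0.79, which encodes a thrombin receptor. The lowest r of Wnt2 with Crhbp in any pair was 0.74. For Crh the first was Nts at 0.69, which encodes the peptide neurotensin, then Arhgap6 at 0.66 and the POU factor gene Pou3f1 at 0.63. The r of Crh with Nts ran from 0.44 to 0.96 over the pairs.

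For Npy the most alike genes were Fam107a at 0.76, Id3 at 0.74, which encodes an inhibitor of helix-loop-helix factors, and Tnfsf13 at 0.73. Npy1r was followed most closely by the protocadherin gene Pcdh18 at 0.75, Ppfibp1 at 0.73 and Ildr2 at 0.71. For Npy5r they were Arpp21 at 0.69, which encodes a cyclic AMP-regulated phosphoprotein, D430041D05Rikl at 0.67 and Vxn at 0.66. These arrays share their dissections, and the mean over pairs includes the wide spread of P and NP.

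The other genes of both pathways were taken from a list of 51, of which 44 had a probe set and 35 were tested. The list held further ligands and receptors, peptide processing enzymes, G proteins with adenylyl cyclases and arrestins, and genes of the hormonal stress axis. In HAD1/LAD1, P/NP and sP/sNP, 0 of the 35 were called in limma's test, against 4.92%, 0 and 0 of all probe sets. In HAD2/LAD2, 2 were higher and 0 lower, against 6.15% of all probe sets called, and in AA/ANA 0 were higher and 1 lower, against 3.94%. These shares of the 35 are near or below those over all probe sets, and the called genes are described without reading a change of the pathway from them. At an unadjusted p under 0.05 the counts over the pairs were 2, 4, 3, 4 and 1 of 35, against 13.7%, 15%, 6.01%, 13.7% and 1.14% of all probe sets. The median difference of the 35 was between 0.01 and 0.03 in all 5 pairs. Of the further ligands and receptors, such as Ucn2, Pyy and Npy4r, none reached the floor.

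Adcy9, which encodes an adenylyl cyclase, was higher in HAD2, at 8.20 ± 0.12 (SD, n = 8), than in LAD2, at 7.67 ± 0.17 (SD, n = 9), a difference of 0.52 ± 0.10 (SE, limma adjusted p = 0.000106). Arrb1, which encodes the receptor-silencing protein beta-arrestin, was also higher, by 0.16 ± 0.05 (SE, limma adjusted p = 0.0486), while its second, dim probe set gave 0.01. The Adcy9 call held in each of 17 fits that left out 1 array of the pair. The Arrb1 call held in 7 of 17, with an adjusted p of up to 0.138, without LAD2 19. It was also lost with no floor (adjusted p = 0.065), after quantile normalization (0.161), with each array centred on its median (0.0674), with the pair fitted alone (0.0932) and with 1 probe set per gene (0.0506). Adcy2, another adenylyl cyclase gene, was lower in arrays labelled AA, at 10.94 ± 0.19 (SD, n = 10), than in those labelled ANA, at 11.21 ± 0.10 (SD, n = 10), a difference of -0.27 ± 0.07 (SE, limma adjusted p = 0.00624), and -0.33 ± 0.07 without AA 1, AA 19 and ANA 20 (limma adjusted p = 0.000856). Of the 8 tested stress-axis genes, which include the glucocorticoid receptor gene Nr3c1 and its target Fkbp5, and of the 8 tested peptide-processing genes, none was called in any pair. At an unadjusted p under 0.05 in limma, 1 stress-axis gene passed in P/NP, 1 in AA/ANA and 1 in sP/sNP. The peptide-processing genes passing this threshold numbered 2 in HAD2/LAD2 and 1 in each of P/NP and AA/ANA.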

How the data were processed

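Ventral tegmental area RNA of 91 rats was measured on Affymetrix arrays, 1 per rat, after amplification and biotin labelling, per the labels' protocols. For 31099 probe sets the authors deposited log2 signals made with RMA, per the submitters' processing notes. RMA corrects background, normalizes quantiles and summarises probes, and which arrays were normalized together was not given in the sources used here. Quantile normalization makes alike only the distributions of arrays that are normalized together. These arrays were divided into 5 sets by their distributions, so lines were compared only within a pair. The file had 0 columns without a sample, and 0 arrays were identical.

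The platform annotation named the probe sets (20826 with 1 symbol, 436 with several, 9780 with none), and 57 controls were left out. Lines came from the sample titles. One limma 3.58.1 fit (lmFit and eBayes, R 4.3.3) of 10 line means over 91 arrays had 81 residual degrees of freedom. Probe sets with a highest line mean of at least the 40th percentile of all values (7.02) entered it, 21185 in all. The contrasts were the 5 pairs, their average and a moderated F test of whether the difference depends on the pair, 2-sided, with Benjamini-Hochberg adjustment over all tested probe sets. Probe sets below the floor came from a fit without it. The scripts were tested on simulated data.

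Marker means use the brightest probe set of each listed gene that was tested. Relations across arrays were computed on residuals from line means. Array sets came from Ward clustering of each array's quantiles, with the number of sets (5) chosen and not estimated, and relations inside the sets were added after seeing the data. Named genes were all members, the called pathway genes and, for each member, the 3 genes with the highest mean r. Members and lists were chosen with earlier results of these data known. Alternatives changed the floor, scaling, samples, variance prior, array weights, probe sets, block and covariate, and left out arrays.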

Additional observations from a re-analysis of the deposited data

Results flagged for a closer look

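Each of the 8 member probe sets was examined in 10 lines, 80 groups in all, for a highest or lowest array whose gap to its neighbour took up more of the line's range than chance allows in 1 of 20 groups. Such arrays were found in 9 groups, and chance alone gives such arrays in about 1 of 20 groups. Npy stood out at 11.83 on the array labelled P 10, where the next P array had 9.80, and at 9.42 on LAD2 20, where the next LAD2 array had 8.38. Npy1r stood out at 9.07 on P 10 (next 7.56), at 9.14 on LAD1 37 (next 8.61) and at 8.35 on ANA 20 (next 8.10). Npy5r stood out at 7.23 on AA 1 (next 6.70). AA 1 and ANA 20 are arrays whose value distributions lay with those of another pair, which was not tested as a cause. Among the dim probe sets, Ucn stood out at 6.11 on NP 5 (next 5.48). Npy2r stood out at 4.86 on P 3 (next 4.66) and, on the low side, at 4.26 on NP 2 (next 4.49).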

How the results depend on the processing

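Of 250 member differences under alternatives other than leaving out 1 array, 244 kept their direction and their side of the threshold. Many of the 250 could not change direction. Another floor, another variance prior, 1 probe set per gene and the pair fitted alone leave the difference itself as it was. Only the standard error and p can move in those settings, so the count is not a measure of stable direction. With array weights, 1 member was called in P/NP (Crh, 0.78), against 7.94% of all probe sets, 1 in AA/ANA (Npy5r, 0.35), against 9.19%, and 1 in the test of whether the difference depends on the pair (Npy, adjusted p = 0.0239), against 24.1%. The weights changed the counts over all probe sets to 1698 in HAD1/LAD1, 1682 in P/NP, 1947 in AA/ANA and 6 in sP/sNP, and turned Npy5r in P/NP to -0.16 and Crhbp in sP/sNP to 0.047. They gave P 10 a weight of 0.10. AA/ANA fitted alone had 381 calls. With 1 probe set per gene, which tests fewer features, HAD1/LAD1 had 427 calls, HAD2/LAD2 605 and AA/ANA 326. The dopamine neuron markers as a covariate turned Crhbp in HAD1/LAD1 to 0.061 and Npy5r there to -0.035. Without P 10 and NP 8, a setting chosen after seeing the data and not among the 250, Npy1r in P/NP was -0.18. Of 99 differences of called pathway and marker genes under these alternatives, 90 kept their direction and side of the threshold and 9 lost the call. Here too the direction could not change in the settings that leave the difference as it was.

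No member was called in any of the 91 fits that left out 1 array, and the P/NP count over all probe sets ran from 0 to 1. Signs turned within these ranges: in HAD2/LAD2, Npy1r -0.054 to 0.10 and Crhbp -0.19 to 0.014; in HAD1/LAD1, Npy5r -0.018 to 0.080; in AA/ANA, Crh -0.040 to 0.096. In P/NP, Npy1r ran from -0.15 to 0.19, and in sP/sNP, Crhbp from -0.16 to 0.10 and Npy1r from -0.075 to 0.017. None of the differences whose sign turned was called. The cause was not tested.

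P and NP share 9 animal numbers and sP and sNP 8. In P/NP, same-numbered deviations correlated from -0.69 to 0.67 (median 0.23, 6 of 9 above 0.1). In sP/sNP they correlated from -0.40 to 0.30 (median -0.16, 1 of 8 above 0.1). Because the labels of these arrays may be displaced, these values cannot show whether the numbers pair the rats. The main fit did not pair them. With the animal number as a replicate block, 0 members and 0 probe sets were called in either pair, and Npy differed by 0.71 in P/NP and -0.43 in sP/sNP.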

Other observations

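Of 46 tested genes of the 10 marker lists, 3 were called in HAD1/LAD1 (6.52%, against 4.92% of all probe sets) and 4 in HAD2/LAD2 (8.70%, against 6.15%), which makes 6 different genes. In the other pairs 0 were called by limma, with 3 in P/NP, 6 in AA/ANA and 0 in sP/sNP at an unadjusted p under 0.05. Nucb2, a gene of the Edinger-Westphal list that encodes the nesfatin precursor, differed by -0.47 ± 0.11 between HAD1 and LAD1 (SE, limma adjusted p = 0.00253) and by 0.35 ± 0.11 between HAD2 and LAD2 (adjusted p = 0.0454). The median difference of the 4 tested genes of that list was -0.12 and -0.18 in these pairs, the latter opposite in sign to Nucb2. The microglial receptor gene Cx3cr1 was lower in HAD1, with a difference of -0.33 ± 0.07 (adjusted p = 0.000836), and P2ry12, also microglial, was higher in HAD2 by 0.54 ± 0.16 (adjusted p = 0.0248). The median difference of the 5 microglia markers was -0.014 in HAD1/LAD1 and -0.099 in HAD2/LAD2, the latter opposite in sign to P2ry12. The pericyte gene Rgs5 differed by 0.35 ± 0.09 (adjusted p = 0.00629) and the endothelial transporter gene Slco1a4 by -0.20 ± 0.07 (adjusted p = 0.0425) in HAD2/LAD2. Mobp, a myelin gene, differed by 0.30 ± 0.08 in HAD1/LAD1 (adjusted p = 0.00729). The 3 calls in HAD1/LAD1 and that of Rgs5 held in every fit that left out 1 array of the pair. Among 17 such fits in HAD2/LAD2, P2ry12 was called in 13, Slco1a4 in 8 and Nucb2 in 7. The tested dopamine neuron markers (10) and astrocyte markers (5) had 0 calls over the pairs in limma's test. At an unadjusted p under 0.05, 1 dopamine neuron marker passed in HAD1/LAD1 and 1 astrocyte marker in AA/ANA.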
